A study of Mus musculus with 6 samples.

Results

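The genes described here are 10 genes of antigen presentation by MHC class I in macrophages of the cerebrospinal fluid: the heavy chain genes H2-K1, H2-D1, H2-Q4, H2-Q6, H2-Q7 and H2-T23, the light chain gene B2m, and the peptide loading genes Tap1, Tap2 and Tapbp. They were chosen by symbol, all 10 were found among the 34652 genes of the deposited table, and all 10 reached 1 FPKM in each of the 6 libraries. The libraries came from Cx3cr1CreER:mTmG mice given tamoxifen and inoculated with LLC-LeptoM cells, a line used to model metastasis to the leptomeninges, and fluid was taken on day 12. Cx3cr1CreER is a tamoxifen-inducible Cre under control of the Cx3cr1 locus, and mTmG is a reporter that turns a cell from red to green where Cre has acted. In the dLAM group (3 libraries), called resident macrophages in the labels, green CD45+CD11b+F4/80+Ly6C- cells were sorted. In the mono-MΦ group (3 libraries), called monocyte-macrophages, cells without green fluorescence were sorted through 2 gates, F4/80+ and F4/80 low Ly6C+, and mixed. Both groups carried the same alleles, drug and tumor cells, and no group without tumor is among the libraries. The series text speaks of 10 samples, of which these 6 were analysed here. Nothing in the labels gives the age of the mice or says whether libraries came from separate or pooled mice, and the p-values therefore reflect only how these libraries scatter, some of which may be technical.

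A class I molecule is a heavy chain bound to beta-2 microglobulin and a short peptide. Peptides cut by the proteasome in the cytosol are pumped into the endoplasmic reticulum by the TAP transporter, a pair of Tap1 and Tap2 chains, and tapasin, the product of Tapbp, holds the empty heavy chain at the transporter until a peptide is bound. The loaded molecule is shown at the cell surface to CD8+ T cells and to receptors of natural killer cells. Nearly all nucleated cells carry it, and interferons raise it.

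Estimated depth was 1.23e+07 to 1.70e+07 fragments per library, and 10281 to 11470 genes reached 1 FPKM. Of 11317 tested genes, limma called 2249 higher (19.9%) and 1204 lower (10.6%) in dLAM, 30.5% in all, at an adjusted p under 0.05, with a median log2 fold change of 0.06. Of the called genes 65.1% were higher, against 51.9% after median-of-ratios scaling and 51.4% after quantile normalization. The macrophage gene Csf1r was present in both groups, at 219 to 276 FPKM in dLAM and 104 to 147 in mono-MΦ. Y-linked RNA was judged by 1 gene, Ddx3y, with a cut at the midpoint of its range on the log scale. Libraries dLAM 3 and mono-MΦ 2 lay above that cut and the other 4 did not. RNA of other cell types moved with the groups. T cell markers passed as higher in dLAM for 12 of 12 genes (summed level 209 to 262 FPKM against 6.28 to 35.0), dendritic cell markers for 8 of 9 (94.8 to 159 against 13.2 to 17.4), NK cell markers for 3 of 3 tested (10.09 to 17.9 against 1.66 to 3.49), and B and plasma cell markers for 4 of 4 tested (18.5 to 31.8 against 1.49 to 4.69). Epithelial markers, the list kept for carcinoma cells, passed as higher for 3 of 3 tested (27.0 to 31.8 against 1.99 to 3.18), most of it Cdh1, at 21.01 to 22.01 FPKM in dLAM. The 3 epithelial genes that were not tested were all under 0.5 FPKM: Krt19 was listed at 0 in every library but dLAM 3 (0.173), Krt8 overlapped between the groups, and Krt7 was lower in dLAM (0.123 to 0.234 against 0.246 to 0.406). Such counts are favoured by the filter where a marker reached 1 FPKM in all 3 dLAM libraries but not in all 3 mono-MΦ libraries, which was so for 9 of the T cell, 7 of the dendritic cell, 2 of the NK cell, 4 of the B and plasma cell and 2 of the epithelial markers tested, and the summed levels do not depend on it. Neutrophil markers passed as lower in dLAM for 4 of 8 (931 to 1157 against 1353 to 8108), or for 2 of 8 without any 1 of dLAM 1, dLAM 2, dLAM 3 or mono-MΦ 2, and monocyte markers for 6 of 6. Of the markers of macrophages, of border macrophages and of microglia, 5 of 8, 6 of 7 and 6 of 6 were higher in dLAM, and 0, 1 and 0 lower, with 1, 3 and 3 tested only through dLAM in the same way. The marker counts include genes tied to the sort gates or to the reporter. These are Ly6c2 among the monocyte markers, Adgre1 and Itgam (CD11b) among the macrophage markers and Cx3cr1 among the microglia markers. The way the cells were chosen favours the direction of the calls of Ly6c2, Adgre1 and Cx3cr1, which are therefore not independent of the sort. Itgam was not called, at 1.96 to 2.24 FPKM in dLAM and 2.60 to 3.12 in mono-MΦ. It passed as lower with median-of-ratios and quantile scaling (adjusted p = 0.039 and 0.014 by limma). Class I genes are active in other cell types too, and the part of those cells in the results was not tested.

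Of the 10 genes, 9 lie within the MHC on chromosome 17, between 33915899 (the start of Tapbp) and 36032855 (the end of H2-T23) of mm10 in GENCODE M21, and B2m lies on chromosome 2. RefSeq promoter windows, 250 bases before to 50 after the transcript start, matched 9 of the 10 genes. The upstream stretches of 4 heavy chain genes and B2m are shown because they hold elements that class I promoters are known for. In the heavy chain genes a site like those bound by NF-kB is followed by a site like those bound by interferon regulatory factors (IRF). In B2m the IRF-like site comes first. CCAAT boxes lie further down. Capitals mark, in this order, the match to GGGGATTNCC, the match to AGTTTCACTT and the CCAAT boxes on either strand. In B2m they mark a match to TTTCNNTT on the other strand, a match to the NF-kB consensus and the CCAAT box.
H2-K1, chr17:34000356-34000461, minus strand: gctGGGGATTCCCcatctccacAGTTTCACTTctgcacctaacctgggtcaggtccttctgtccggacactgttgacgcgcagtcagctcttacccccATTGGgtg
H2-Q4, chr17:35379440-35379569, plus strand: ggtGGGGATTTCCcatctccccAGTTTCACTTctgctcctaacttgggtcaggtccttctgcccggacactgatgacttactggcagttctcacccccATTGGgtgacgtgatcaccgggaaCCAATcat
H2-Q6, chr17:35424674-35424802, plus strand: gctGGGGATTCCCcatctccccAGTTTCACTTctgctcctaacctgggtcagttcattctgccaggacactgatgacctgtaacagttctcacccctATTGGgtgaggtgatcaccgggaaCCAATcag
H2-Q7, chr17:35439019-35439146, plus strand: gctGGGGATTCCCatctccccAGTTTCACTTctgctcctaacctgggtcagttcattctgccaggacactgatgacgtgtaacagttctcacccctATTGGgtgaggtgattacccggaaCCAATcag
B2m, chr2:122147547-122147641, plus strand: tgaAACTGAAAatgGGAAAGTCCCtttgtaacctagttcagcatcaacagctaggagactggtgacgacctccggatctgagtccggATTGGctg

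In the H2-Q4 stretch above, an exon of 1 GENCODE gene overlaps the bases shown. For H2-D1, where a GENCODE transcript starts farther upstream, only the element itself is given, with capitals as above.
H2-D1, chr17:35262923-35262951, plus strand: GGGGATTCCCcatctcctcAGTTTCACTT

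The element from the first to the second match is 29 bases long in H2-K1, H2-D1, H2-Q4 and H2-Q6 and 28 in H2-Q7. Both matches were found together in 5 of 27025 promoter windows of mouse genes (0.0185%), those of H2-K1, H2-D1, H2-Q4, H2-Q6 and H2-Q7. Alone, GGGGATTNCC was in 72 windows (0.266%) and AGTTTCACTT in 44 (0.163%). The letters of both motifs were read from these promoters, so the shares describe how rare the letters are and test nothing. The shorter IRF core TTTCNNTT was in 7 of the 9 windows, H2-T23 and B2m included, and in 24.2% of all windows. The NF-kB consensus was in 6 of the 9 windows, those of the 5 K, D and Q genes and of B2m, and in 4.35% of all. TGACG, the core of cyclic AMP response elements, was in 6 of 9 and in 21.0% of all, and CCAAT in 9 of 9 and in 37.9%. The AGTTTCACTT match contains a TTTCNNTT match, and the GGGGATTNCC matches shown are also matches to the NF-kB consensus. Among the 7967 windows of tested genes the shares were 0.0628% for both matches together, 0.364% for GGGGATTNCC, 0.289% for AGTTTCACTT, 18.3% for TTTCNNTT, 5.06% for the NF-kB consensus, 33.4% for TGACG and 39.1% for CCAAT. A match is a description of the letters and not of a bound factor.

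**Figure D1:**
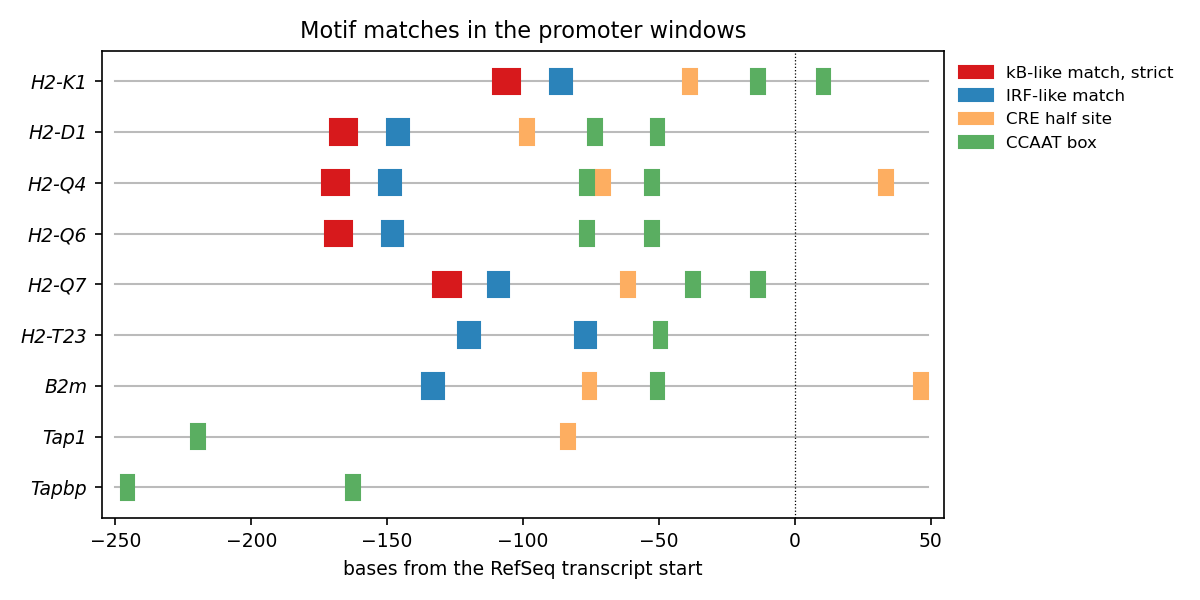
Positions of motif matches (coloured boxes, both strands) in the promoter windows of 9 genes, in bases from the RefSeq transcript start (dotted line). The NF-kB-like and IRF-like matches stand side by side in the 5 K, D and Q genes, at differing distances from the annotated start.

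The classical heavy chain genes H2-K1 and H2-D1, whose products present peptides to CD8+ T cells, were higher in dLAM, H2-K1 with the larger log2 fold change. H2-K1 (chromosome 17, 33996017 to 34000347, minus strand) stood at 161, 177 and 146 FPKM in dLAM libraries 1 to 3 and at 58.8, 50.7 and 63.1 in mono-MΦ libraries 1 to 3. The lowest dLAM library was 2.31 times the highest mono-MΦ library. On the log2(FPKM + 1) scale used for all tests here, its log2 fold change was 1.47 with a standard error (SE) of 0.12 and an adjusted p of 1.7e-04 by limma. H2-D1 (35262730 to 35267499, plus strand) stood at 639, 649 and 585 FPKM in dLAM and at 390, 329 and 342 in mono-MΦ. All 3 dLAM libraries lay above all 3 mono-MΦ libraries, and the log2 fold change was 0.82 (SE 0.13, adjusted p = 0.0032 by limma). H2-D1 was the most abundant heavy chain RNA in every library. In bulk samples like these, fewer cells of a type and less RNA per cell cannot be told apart.

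The ratio of H2-D1 to H2-K1 stood at 3.88 ± 0.178 in dLAM and 6.18 ± 0.673 in mono-MΦ (SD, n = 3), and its ranges did not overlap (3.68 to 4.01 against 5.41 to 6.64). An exact two-sided permutation test of this ratio gave p = 0.10, the smallest value that 3 against 3 libraries allow, and 0.13 adjusted over 4 ratios of paired genes. As a ratio within a library, it does not change when a library is multiplied by a single factor, though quantile normalization can change it.

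The 3 genes of the Q region had the largest log2 fold changes of the 10. H2-Q4 encodes a class Ib chain, and H2-Q6 and H2-Q7 encode chains of the Qa-2 antigen, which is held in the membrane by a lipid anchor. H2-Q6 (35424850 to 35430055) stood at 59.9, 72.4 and 69.4 FPKM in dLAM and at 3.42, 6.37 and 6.81 in mono-MΦ, 12.2-fold higher by the ratio of means. Its log2 fold change was 3.42 (SE 0.22, adjusted p = 5.4e-05 by limma), which ranked 40 among 11317 tested genes. In dLAM its mean level ranked 524 of the tested genes, in mono-MΦ 5786. H2-Q7 (35439155 to 35443773) stood at 12.1, 17.1 and 12.8 FPKM in dLAM and at 1.08, 2.16 and 2.39 in mono-MΦ. Its log2 fold change was 2.40 (SE 0.22, adjusted p = 2.4e-04 by limma). H2-Q4 (35379617 to 35385290) stood at 50.7, 56.2 and 58.8 FPKM in dLAM and at 14.4, 17.3 and 16.4 in mono-MΦ. Its log2 fold change was 1.72 (SE 0.11, adjusted p = 5.1e-05 by limma). No library of one group overlapped the other for any of the 3 genes, and the lowest dLAM library was 8.80, 5.04 and 2.93 times the highest mono-MΦ library for H2-Q6, H2-Q7 and H2-Q4.

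Within mono-MΦ the levels of H2-Q6 and H2-Q7 varied more than those of the other heavy chain genes, by 1.99 and 2.22 times between the lowest and the highest library against 1.19 to 1.48 times for the rest. Library mono-MΦ 1 was the lowest for both. The summed level of the 12 T cell markers was also lowest there, at 6.28 FPKM against 35.0 and 27.2 in mono-MΦ 2 and 3, beside a sum of H2-Q6 and H2-Q7 of 4.49, 8.53 and 9.20 FPKM. Sums of neutrophil (1353, 4716 and 8108 FPKM in mono-MΦ 1 to 3), monocyte (2876, 3550 and 4480) and NK cell markers (1.66, 2.85 and 3.49) were lowest there too. Those of B and plasma cell, dendritic cell, macrophage, border macrophage, microglia and epithelial markers were not. The part of RNA from any of these cells in the H2-Q6 and H2-Q7 levels was not tested.

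H2-Q6 and H2-Q7 are close copies, 95.5% identical over 974 aligned bases of coding sequence, where the other heavy chain pairs were 81.8% to 91.99% identical. Exact stretches of 150 bases, the read length, made up only a small share of each transcript: 5.99% of such windows in the H2-Q6 transcript also occur in H2-Q7 transcripts, and 8.44% of those in the H2-Q7 transcript occur in H2-Q6. How the authors assigned reads that fit both is not given in the sources used here, so the split between both genes is uncertain. Summed into 1 row, they had a log2 fold change of 3.34 (SE 0.23, adjusted p = 8.6e-05 by limma). The ratio of H2-Q6 to H2-Q7 was 4.87 ± 0.597 in dLAM and 2.99 ± 0.167 in mono-MΦ (SD, n = 3; exact two-sided permutation p = 0.10, adjusted 0.13). H2-Q7 rested on an estimated 62.8 to 174 fragments in each mono-MΦ library and 678 to 897 in each dLAM library, the thinnest of the 10 genes. H2-Q5, a neighbour with stretches in common with H2-Q7 and named after its values were seen, stood at 9.84, 14.2 and 14.6 FPKM in dLAM and 2.49, 2.14 and 3.01 in mono-MΦ (log2 fold change 1.96, SE 0.17, adjusted p = 2.3e-04 by limma). H2-Q4 shares 8.39% of its windows with the antisense gene Gm11131, which did not exceed 1.32 FPKM in any library.

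H2-T23 encodes the Qa-1 chain, which presents leader peptides of other class I chains to receptors with CD94. It lies at 36029773 to 36032855 on the minus strand. It stood at 24.9, 29.5 and 22.1 FPKM in dLAM and at 18.1, 14.0 and 20.8 in mono-MΦ. The groups were next to each other without overlap, the lowest dLAM library being 1.06 times the highest mono-MΦ library. The log2 fold change was 0.51 (SE 0.16) with an adjusted p of 0.04997 by limma, at the threshold. The call was lost in 12 of 17 alternatives, among them leaving out dLAM 1, 2 or 3 or mono-MΦ 1 or 2 (log2 fold changes 0.53, 0.41, 0.61, 0.54 and 0.37, adjusted p = 0.12, 0.17, 0.057, 0.081 and 0.11).

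**Figure D2:**
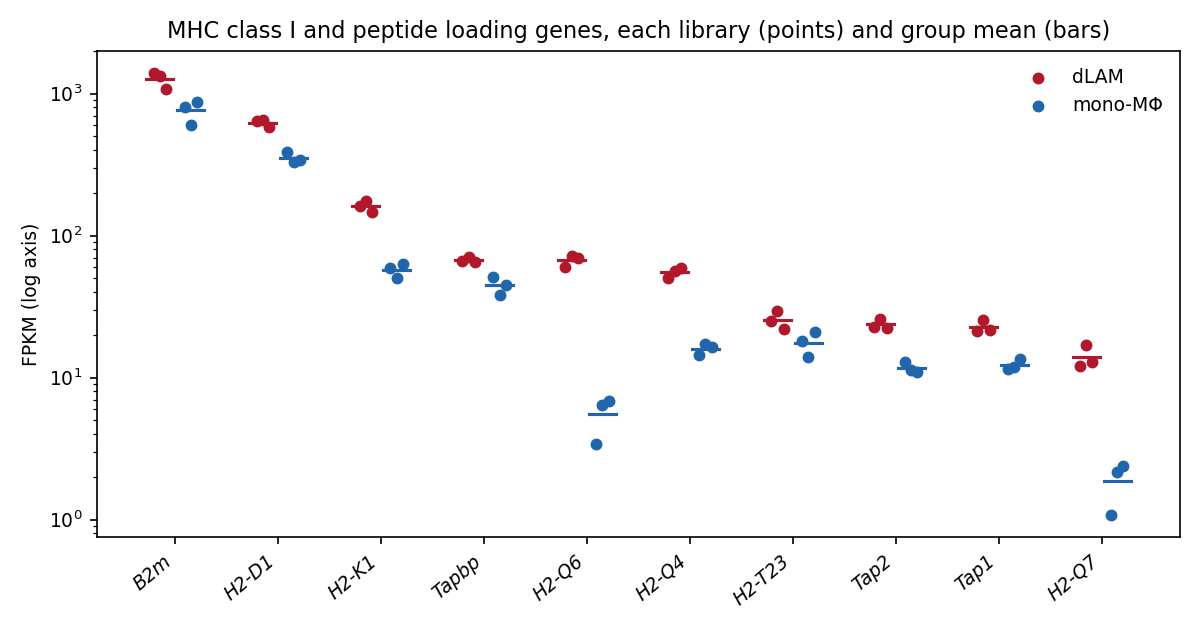
FPKM (log axis) of the 10 genes in each library (points) with the group mean (horizontal bars), dLAM in red and mono-MΦ in blue, ordered by the dLAM mean. The dLAM points lie above the mono-MΦ points for all 10 genes, widely for H2-Q6 and H2-Q7 and narrowly for H2-T23.

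FPKM is scaled by gene length, but the lengths used are not given, so levels set beside each other across genes depend on them. In GENCODE M21 the exons cover 2085 bases in H2-Q6 and 4265 in H2-Q7, whose longest coding transcript has 1523. As deposited, the make-up of heavy chain RNA differed between the groups. The 6 heavy chain genes summed to 948 ± 53.4 FPKM in dLAM and 452 ± 33.2 in mono-MΦ (SD, n = 3), a ratio of 2.10. H2-Q4, H2-Q6 and H2-Q7 together made up 14.4% ± 1.42 of that sum in dLAM and 5.24% ± 1.19 in mono-MΦ, with ranges of 12.9% to 15.8% and 3.89% to 6.15%. H2-K1 made up 16.3% to 17.6% in dLAM against 12.1% to 13.99% in mono-MΦ. H2-D1 made up 65.9% ± 1.34 against 78.1% ± 2.30, and H2-T23 2.68% ± 0.242 against 3.90% ± 0.650. None of these shares overlapped between groups. They are descriptions of the 10 chosen genes and were not tested.

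**Figure D3:**
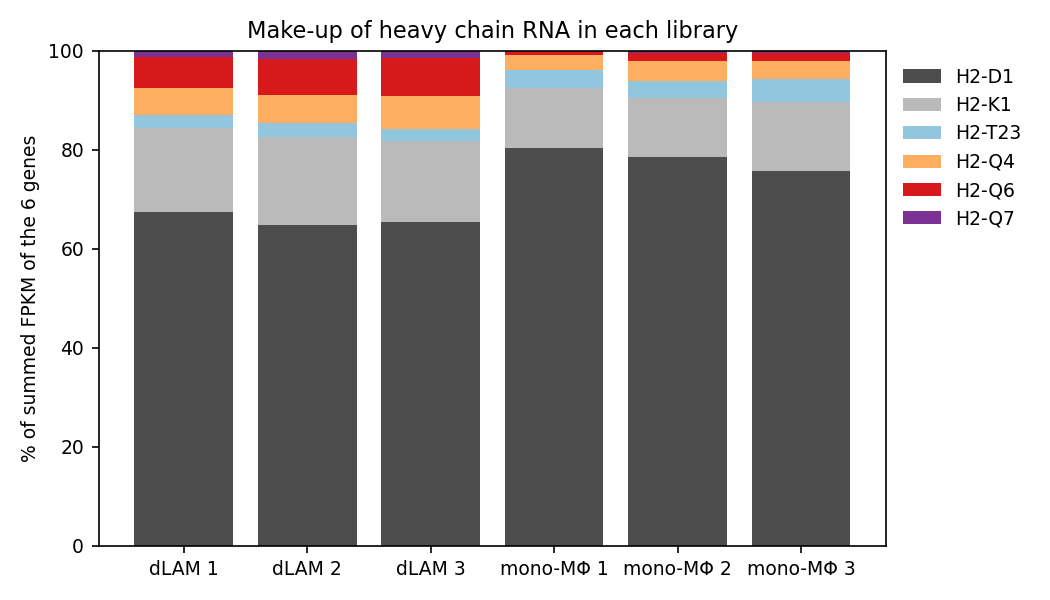
Share of each of 6 heavy chain genes in their summed FPKM (y axis, percent), 1 stacked bar per library. H2-D1 takes 64.9% to 67.4% in dLAM and 75.7% to 80.3% in mono-MΦ, and the 3 Q genes at the top of the bars take more in dLAM.

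By FPKM, the light chain gene B2m (chromosome 2, 122147686 to 122153083, plus strand) was the most abundant of the 10. It ranked 19 in dLAM and 38 in mono-MΦ by mean level among the tested genes. It stood at 1401, 1327 and 1081 FPKM in dLAM and at 801, 605 and 879 in mono-MΦ. All dLAM libraries lay above all mono-MΦ libraries, and the log2 fold change was 0.74 (SE 0.21, adjusted p = 0.030 by limma). The call was lost without dLAM 1, dLAM 2 or mono-MΦ 2 (log2 fold changes 0.67, 0.71 and 0.59, adjusted p = 0.11, 0.098 and 0.079) and in 4 of the other alternatives. For each FPKM of the 6 heavy chains there were 1.34 ± 0.135 FPKM of B2m in dLAM and 1.68 ± 0.254 in mono-MΦ (SD, n = 3), with ranges of 1.21 to 1.48 and 1.44 to 1.95 that overlapped.

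Both transporter genes rose. Tap1 (34187553 to 34197225, plus strand) stood at 21.2, 25.5 and 21.6 FPKM in dLAM and at 11.5, 11.9 and 13.6 in mono-MΦ, a log2 fold change of 0.83 (SE 0.11, adjusted p = 0.0015 by limma). Tap2 (34203527 to 34216321, plus strand) stood at 22.7, 26.0 and 22.3 FPKM in dLAM and at 12.8, 11.4 and 11.03 in mono-MΦ, a log2 fold change of 0.95 (SE 0.11, adjusted p = 5.8e-04 by limma). Both had their highest value in dLAM 2. The ratio of Tap1 to Tap2 was 0.959 ± 0.0267 in dLAM and 1.06 ± 0.171 in mono-MΦ (SD, n = 3; exact two-sided permutation p = 0.50, adjusted 0.50), with overlapping ranges of 0.930 to 0.982 and 0.894 to 1.24. With 3 against 3 libraries no such ratio could pass, so the value does not show that both genes moved alike.

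Tapasin RNA rose too. Tapbp (33915899 to 33929292, plus strand) stood at 65.9, 70.6 and 65.4 FPKM in dLAM and at 50.8, 37.9 and 45.2 in mono-MΦ, without overlap. The log2 fold change was 0.59 (SE 0.12, adjusted p = 0.0093 by limma). Of the 150-base windows of the Tapbp transcript, 8.73% also occur in Gm19412. That gene stood at 0.942 to 1.46 FPKM in dLAM and 0.409 to 0.727 in mono-MΦ. There were 2.97 ± 0.184 FPKM of Tapbp for each of Tap1 in dLAM and 3.64 ± 0.686 in mono-MΦ (SD, n = 3; exact two-sided permutation p = 0.10, adjusted 0.13), ranges of 2.77 to 3.12 and 3.17 to 4.43.

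As a group, all 10 genes passed as higher in dLAM, where 19.9% of all tested genes did, and for all 10 the dLAM libraries lay above the mono-MΦ libraries, where 29.3% of all tested genes did. Their median log2 fold change was 0.89, against 0.06 for all tested genes. The 10 genes were chosen with earlier results of these data known, so these shares describe them and are not a test. The calls of H2-T23 and B2m were lost in 12 and 7 of 17 alternatives. From the largest change to the smallest the order was H2-Q6, H2-Q7, H2-Q4, H2-K1, Tap2, Tap1, H2-D1, B2m, Tapbp and H2-T23. From H2-Q6 to Tap2 each gene exceeded the next by more than the sum of both standard errors. With a pseudocount of 5, H2-Q7 (1.46) fell below H2-Q4 (1.52). H2-Q4 exceeded H2-K1 by less than that sum with that pseudocount, with quantile normalization (1.73 against 1.56) and with the replicate block (1.72 against 1.47). The same held without dLAM 3 (1.68 against 1.54), mono-MΦ 1 (1.65 against 1.49) or mono-MΦ 3 (1.74 against 1.54). From Tap2 down to H2-T23 each differed from the next by less than the sum, so that part of the order is not resolved. Within the 4 libraries with low Y-linked RNA (dLAM 1 and 2, mono-MΦ 1 and 3), 8 of the 10 passed, all but B2m and H2-T23, against 13.1% of all tested genes. The remaining 2 libraries hold 1 of each group and allow no test.

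**Figure D4:**
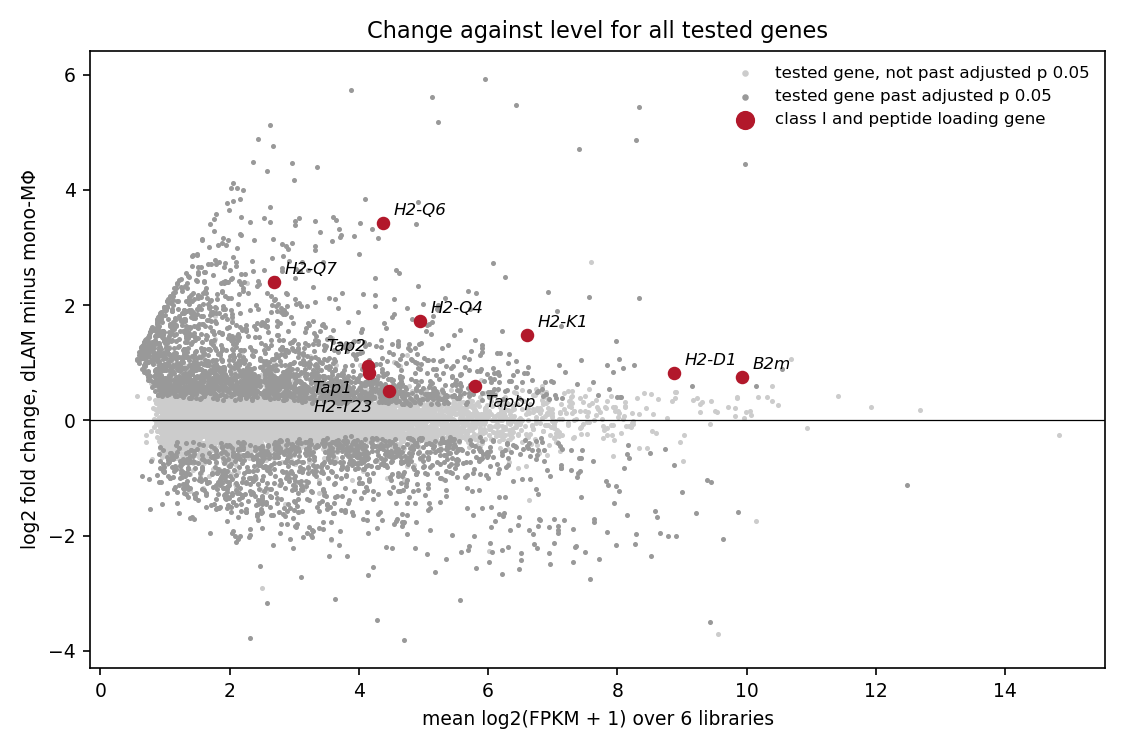
Log2 fold change (dLAM minus mono-MΦ) against mean log2(FPKM + 1) over 6 libraries for 11317 tested genes, dark grey past an adjusted p of 0.05 and light grey not, with the 10 genes in red. All 10 lie above 0, from 0.51 for H2-T23 to 3.42 for H2-Q6.

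The limit on gene lengths given with the heavy chain shares holds here too. By FPKM in dLAM, B2m, H2-D1 and H2-K1 led in that order without overlapping libraries. Tapbp and H2-Q6 overlapped each other, as did H2-T23, Tap2 and Tap1, and H2-Q7 was lowest. H2-Q4 stood between H2-Q6 and H2-T23 without overlapping either. In mono-MΦ, B2m and H2-D1 led, and H2-K1 overlapped Tapbp, whose highest library reached past the lowest of H2-K1. There H2-T23 and H2-Q4 overlapped, as did Tap1 and Tap2, and H2-Q6 stood below all of them.

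Other heavy chain genes of the MHC were mostly low, and of the 7 that passed the filter 4 were higher in dLAM and 0 lower, where 19.9% and 10.6% of all tested genes were. H2-M2 and H2-Q10 passed the filter only through dLAM, and of the other 5 genes 3 were higher. Of 15 in the table, 4 (H2-T3, H2-M9, H2-M10.1 and H2-M11) were listed at 0 in each library. H2-M3, which presents formylated peptides, averaged 35.3 ± 1.40 FPKM in dLAM and 13.7 ± 2.63 in mono-MΦ (SD, n = 3). Its log2 fold change was 1.33 (SE 0.14, adjusted p = 5.1e-04 by limma). H2-M2 (log2 fold change 1.21), H2-T22 (0.81) and H2-T10 (0.80) were higher too, H2-M2 at 1.08 to 1.84 FPKM in dLAM and listed at 0 in mono-MΦ 2 and 3. At such low levels the pseudocount sets the size: with pseudocounts of 0.1 and 5 the log2 fold changes were 3.56 and 0.35 for H2-M2 and 1.16 and 0.34 for H2-T10. H2-T22 and H2-T10 encode chains that need no peptide. H2-T24 had 12.4, 14.4 and 9.45 FPKM in dLAM and 18.9, 9.504 and 28.5 in mono-MΦ, which overlapped (log2 fold change -0.51, SE 0.35, adjusted p = 0.32 by limma). Without mono-MΦ 2 it passed as lower in dLAM, with a log2 fold change of -0.91 and an adjusted p of 0.024. Without that library, 1 of the 7 genes was therefore lower.

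Class I-like chains outside the MHC, several of which also pair with beta-2 microglobulin, were higher for 3 of 5 tested and lower for 0 (19.9% and 10.6% of all tested genes). Fcgrt, the heavy chain of the neonatal Fc receptor, averaged 43.7 ± 6.46 FPKM in dLAM and 11.5 ± 2.87 in mono-MΦ (SD, n = 3), with a log2 fold change of 1.85 (SE 0.19, adjusted p = 3.7e-04 by limma). Hfe, whose product binds the transferrin receptor, had a log2 fold change of 1.54, and Cd1d1, which presents lipids, one of 0.97. Cd1d1 passed the filter only through dLAM, at 0.826 to 0.895 FPKM in mono-MΦ, and its log2 fold change was 1.51 and 0.38 with pseudocounts of 0.1 and 5; that of Hfe was 0.997 with a pseudocount of 5. Without mono-MΦ 1, Ulbp1, named after its values were seen and a ligand of an NK cell receptor, passed as lower (log2 fold change -0.70, adjusted p = 0.013 by limma).

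Among partners of peptide loading and trimming, 3 of 10 tested genes were higher and 0 lower, a share near the 19.9% of all tested genes that were higher, with a median log2 fold change of 0.01. Tapbpl, which encodes the tapasin relative TAPBPR, averaged 14.6 ± 2.10 FPKM in dLAM and 7.21 ± 1.20 in mono-MΦ (SD, n = 3), with a log2 fold change of 0.93 (SE 0.15, adjusted p = 0.0031 by limma). Erap1, the peptidase that trims peptides in the endoplasmic reticulum, was higher by 0.53 and Calr (calreticulin) by 0.66. The Calr call was lost with median-of-ratios scaling (adjusted p = 0.050). Without mono-MΦ 1, Npepps, a cytosolic peptidase named after its values were seen, passed as lower (log2 fold change -0.44, adjusted p = 0.040 by limma), as it did with median-of-ratios or quantile scaling. Canx (calnexin) and Pdia3 (ERp57), general folding factors that also serve class I, were not called: their log2 fold changes were 0.17 and 0.02 (SE 0.13 and 0.15, adjusted p = 0.36 and 0.95 by limma).

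The immunoproteasome genes, whose products cut many class I peptides, were higher for 4 of 5 and lower for 0, beside 19.9% and 10.6% of all tested genes. Psmb8 stands between Tap1 and Tap2 on the chromosome, and its level was 88.5, 100.2 and 86.2 FPKM in dLAM and 54.3, 41.3 and 49.1 in mono-MΦ (log2 fold change 0.92, SE 0.13, adjusted p = 0.0015 by limma). Psmb9, which runs away from Tap1 on the other strand with annotated ends that overlap, was at 6.65, 8.16 and 4.52 against 3.82, 3.90 and 2.89 FPKM (log2 fold change 0.69, SE 0.20, adjusted p = 0.036 by limma). Reads from the shared stretch cannot be told apart without strand. The activator genes Psme1 and Psme2 were higher by 0.82 and 0.50, and Psmb10 did not pass (log2 fold change 0.21, adjusted p = 0.25 by limma). The calls of Psmb9 and Psme2 were fragile, and the log2 fold change of Psmb9 was 0.41 with a pseudocount of 5: only 2 of the 5 genes passed without dLAM 1, dLAM 2, mono-MΦ 2 or mono-MΦ 3, or with median-of-ratios or quantile scaling.

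Of 15 genes for factors that act at class I promoters, 3 were higher and 1 lower, shares near the 19.9% and 10.6% of all tested genes, so the counts are no result about the list. Nlrc5, the class I transactivator, stood at 13.2, 18.5 and 16.2 FPKM in dLAM and at 7.94, 9.31 and 8.93 in mono-MΦ, without overlap (log2 fold change 0.79, SE 0.14, adjusted p = 0.0043 by limma). Its call held in all 17 alternatives. Rfx5 and Irf8 were higher by 0.52 and 0.46 and Nfyb fell by 0.49 on the log2 scale, calls that ended in 9, 13 and 6 alternatives. Rfx5 passed the filter only through dLAM, and its log2 fold change was 0.86 and 0.19 with pseudocounts of 0.1 and 5. The Rfx5, Irf8 and Nfyb calls were all lost with the replicate block (adjusted p = 0.057, 0.056 and 0.067 by limma). They were also lost in the 4 libraries with low Y-linked RNA (adjusted p = 0.17, 0.11 and 0.13 by limma). With Nlrc5 as the 1 gene left, 1 was higher and 0 lower without dLAM 2, dLAM 3 or mono-MΦ 3. The lower count was also 0 without dLAM 1, and 3 with median-of-ratios or quantile scaling, where Rfxank and Creb1, named for the count, joined Nfyb. Irf1, which interferon gamma induces, had a log2 fold change of 0.47 (SE 0.16) and did not pass by limma (adjusted p = 0.057). It passed without mono-MΦ 2 (log2 fold change 0.62, adjusted p = 0.017) and with a term for Y-linked RNA (adjusted p = 0.024).

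**Figure D5:**
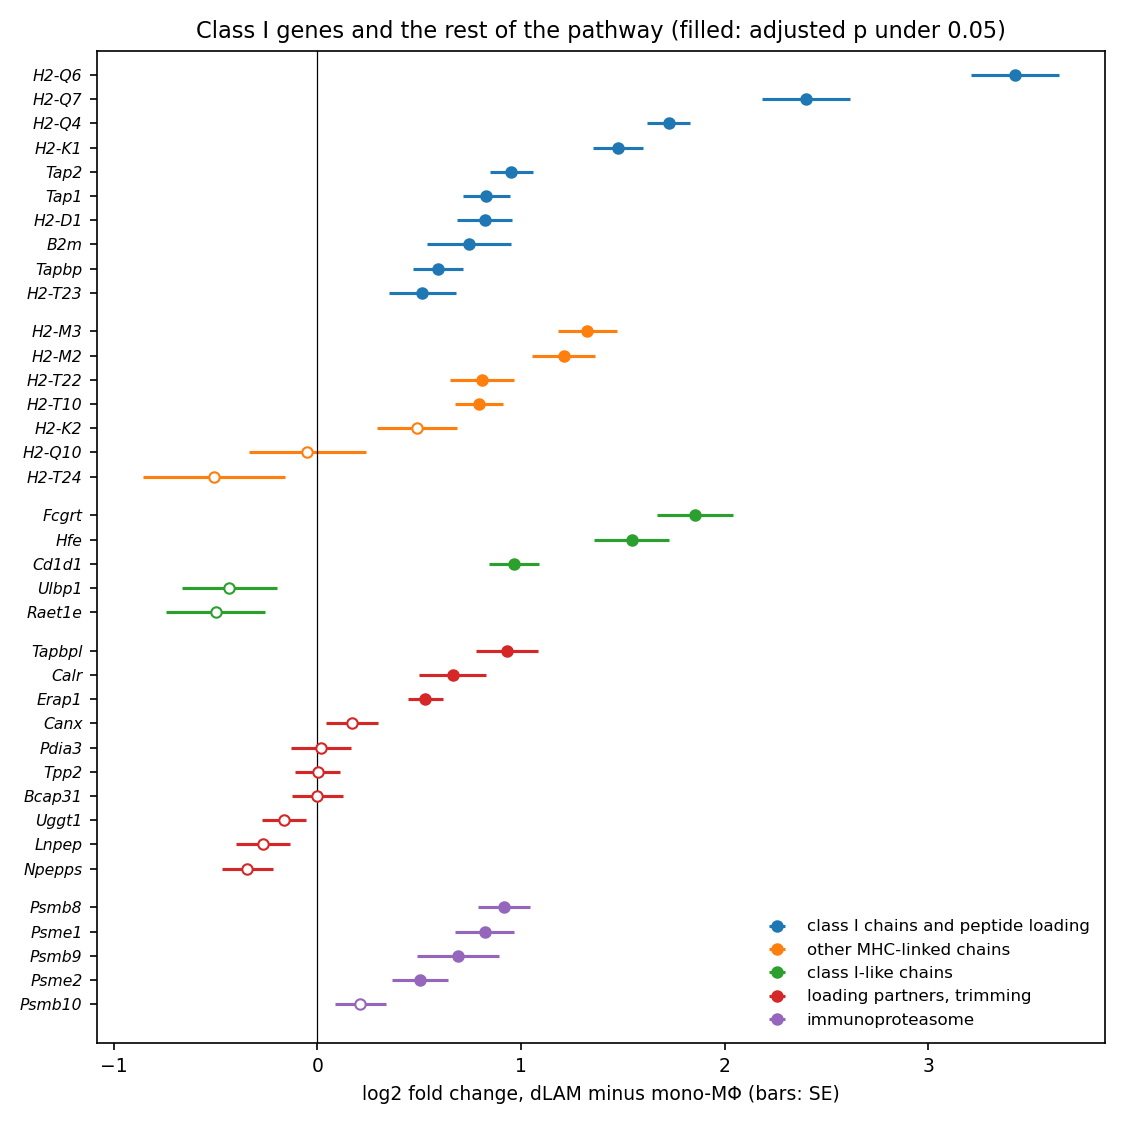
Log2 fold change (x axis, dLAM minus mono-MΦ, bars SE) of the 10 genes and of the tested genes of 4 related lists, filled where the adjusted p was under 0.05. H2-Q6 and H2-Q7 lie farthest to the right, Fcgrt and H2-Q4 follow, and most loading partners lie near 0.

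Of 4 genes for turnover of class I at the surface (Susd6, Tmem127, Wwp2 and Sppl3), 0 were higher and 0 lower, also in every alternative. Of 7 genes tied to cross-presentation, the showing of outside antigen on class I, 3 were higher and 2 lower (19.9% and 10.6% of all tested genes). Wdfy4 averaged 55.8 ± 7.04 FPKM in dLAM and 28.3 ± 1.82 in mono-MΦ (SD, n = 3), with a log2 fold change of 0.95 (SE 0.12, adjusted p = 8.9e-04 by limma). Clec9a, a marker of cross-presenting dendritic cells, was higher by 1.25 and Stx4a by 0.56. Clec9a passed the filter only through dLAM, and its log2 fold change was 2.47 and 0.42 with pseudocounts of 0.1 and 5. Cybb, the oxidase subunit, fell by 1.14 on the log2 scale, to 171 ± 20.04 from 379 ± 64.0 FPKM. The second lower gene, Rac2, named for the count, fell by 0.37, and only Cybb was lower without any of dLAM 1, 2 and 3 or mono-MΦ 1 and 3, each left out in turn. Dendritic cell markers were higher in the same libraries, and their part was not tested.

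Receptors of class I, mostly carried by lymphocytes, were higher for 5 of 8 tested and lower for 1 (19.9% and 10.6% of all tested genes). Of the 5, Klrd1, Klrc1, Klrk1 and Cd8a, the last named for the count, met the filter through the dLAM libraries and not through mono-MΦ alone. Klrd1 (CD94) stood at 4.45, 5.58 and 7.18 FPKM in dLAM and at 0.263, 1.07 and 0.528 in mono-MΦ (log2 fold change 2.07, SE 0.23, adjusted p = 5.2e-04 by limma). Cd8b1 was higher by 2.01, Klrk1 by 1.503 and Klrc1 by 1.45. With pseudocounts of 0.1 and 5 these log2 fold changes were 3.15 and 0.93 for Klrd1, 2.49 and 1.14 for Cd8b1, 2.33 and 0.64 for Klrk1 and 2.49 and 0.59 for Klrc1. The lower gene, Pirb, named for the count, encodes an inhibitory receptor of myeloid cells and fell by 0.85 on the log2 scale, to 52.9 ± 9.69 from 95.2 ± 8.30 FPKM (SD, n = 3). T cell and NK cell markers were higher in the same libraries, and their part was not tested.

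The 5 tested genes whose pattern over the 6 libraries was most like the mean standardized pattern of the 10 were Camk1, Ccnd1, Axl, Echdc1 and Eef1g, each with a Pearson r of at least 0.998. These 6 points share the split into groups, and 847 tested genes reached an r of 0.95. Camk1 was at 10.96, 12.2 and 9.96 FPKM in dLAM and 4.30, 3.43 and 4.49 in mono-MΦ.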

How the data were processed

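The study sequenced RNA of 2 sorted cell populations from cerebrospinal fluid. Expression values were deposited by the authors as FPKM, fragment counts scaled to gene length and library size. Per the submitters' processing notes the tools were FastQC, HISAT2 and featureCounts and the build was mm10. For versions, settings, strand handling, annotation and reads with several matches, the choice is not given in the sources used here. Some column names carry garbled letters in place of MΦ and were matched to the titles by prefix and number.

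A gene was tested where 3 or more of the 6 libraries reached 1 FPKM (11317 genes). The log2(FPKM + 1) values entered limma 3.58.1, run in R 4.3.3, with 1 group term, a mean-variance trend and two-sided p-values adjusted over all tested genes by the Benjamini-Hochberg method, with a threshold of 0.05. The fit was run on simulated data with known changes, drawn with the normal scatter that limma assumes. That run does not cover mixed cell types or shifts in scale between libraries. Depth was estimated from the smallest steps of the values with exon lengths of GENCODE M21, to whose symbols 94.3% of the genes matched. With those lengths 40.7% to 44.5% of the values below 20 reads lay within 0.02 of a whole read, so counts were not recovered.

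Promoter sequences are from RefSeq (GRCm38.p6) and were searched on both strands in Python 3.11.15. Coding sequences were aligned with Biopython 1.88. The 10 genes, the gene lists and the tests were chosen with earlier results of these data known. Named genes outside the 10 are, in each list, the 4 with the largest change among those past the threshold, a set given whatever its result (Nlrc5, Irf1, Calr, Canx, Pdia3, Erap1, Tapbpl, the immunoproteasome genes, H2-T22, H2-T24 and H2-M3), the 5 most similar patterns and a few markers. Some genes of these lists are not reported here by name. Alternatives were other pseudocounts, filters and scalings, no trend, a replicate block, a term for Y-linked RNA and leaving out each library.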

Additional observations from a re-analysis of the deposited data

How the results depend on the processing

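The number of class I and loading genes higher in dLAM was 8 to 10 over 17 alternatives, with 0 lower in each. H2-K1, H2-D1, H2-Q4, H2-Q6, H2-Q7, Tap1, Tap2 and Tapbp passed in every one. Leaving out each library gave 8 to 10. Deviations from the group means correlated at 0.19, -0.15 and -0.09 between libraries with the same number. Between libraries with different numbers they correlated at -0.31 to 0.39. With 3 libraries in each group such values cannot show whether the numbers mark pairs. The main fit did not take them as pairs, and the replicate block did. The replicate block gave 8, without B2m and H2-T23 (adjusted p = 0.061 and 0.12), and 1860 genes higher and 999 lower overall. The adjusted p of B2m ranged from 0.0094 to 0.12 and that of H2-T23 from 0.013 to 0.17. The log2 fold change of H2-Q7 was 1.46 with a pseudocount of 5. Over all genes, 1247 were higher with a filter of 5 FPKM, which tested 6579 genes, and 1480 were higher and 780 lower in the 4 libraries with low Y-linked RNA, an alternative chosen after seeing the data, which uses fewer samples. Leaving out each library gave 1590 to 2096 higher and 780 to 1220 lower, the 780 without dLAM 2. Of called genes 65.1% were higher as deposited, 51.9% after median-of-ratios scaling and 51.4% after quantile normalization, which lowered the median over all genes from 0.06 to -0.05 (a shift of -0.11). Pdia3 was at -0.097 with median-of-ratios scaling and at -0.086, -0.029 and -0.031 without dLAM 1, dLAM 2 and mono-MΦ 2, and the cause was not tested. Fragment estimates cover counting error only.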
